A study of Mus musculus with 4 samples.

Results

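The chemokines 6Ckine, MIP-3beta, TARC and CTACK, which guide lymphocytes into lymphoid tissue and skin, were followed in the serum of mice with experimental autoimmune encephalomyelitis (EAE) and of control mice. They were taken by name as the ligands of the receptors CCR7 (6Ckine and MIP-3beta), CCR4 (TARC) and CCR10 (CTACK), and are 4 of the 32 proteins on the antibody array. EAE is an autoimmune inflammation of the brain and spinal cord that serves as a model of multiple sclerosis. The EAE group and the control group held 2 serum samples each, all from male C57BL/6 mice, with 1 array per sample. The series' design text calls the control animals vehicle controls. The sources used here give neither the age of the mice nor the induction of EAE, the stage of disease at sampling or the contents of the vehicle. The extraction protocol ends with serum gathered in a shared tube, and the number of mice behind a sample is not stated, so the p-values below rest on the scatter of these 4 samples alone, and that scatter may be technical. The panel holds no protein that defines serum, so the labelled material could not be checked against a marker.

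Chemokines are small secreted proteins that bind to the walls of blood and lymph vessels and draw in cells carrying the matching receptor. CCR7 is carried by naive and central memory T cells and by mature dendritic cells, and its ligands bring these cells together in the T cell areas of lymph nodes. CCR4 and CCR10 are found together on many T cells that home to skin, and CCR4 is also carried by T helper 2 cells and regulatory T cells. 6Ckine, whose name refers to its extra cysteines, is made by the stroma and high endothelial venules of lymph nodes and has a long charged tail that holds it on cell surfaces. MIP-3beta lacks that tail and is made by lymph node stroma and mature dendritic cells. TARC is made chiefly by dendritic cells, and CTACK by keratinocytes of the skin.

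The names of the array were matched to the RefSeq gene table of assembly GRCm38.p6. TARC matched 1 gene, Ccl17, and MIP-3beta matched 1 gene, Ccl19, whose next protein-coding neighbour in the table is Ccl21a. 6Ckine is a synonym of 6 protein-coding genes in that table, Ccl21a, Ccl21b, Ccl21c, Ccl21d, Gm10591 and Gm13304, and CTACK of 2, Ccl27a and Ccl27b. The array values of 6Ckine and CTACK are therefore not assigned to a single gene here.

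The 4 chemokines had lower means in EAE serum than in control serum relative to the positive control of each array, and for each of them both EAE samples lay below both control samples. In log2 brightness, the intensity of a spot over the positive-control average with no background subtracted, 6Ckine, MIP-3beta and TARC fell past an adjusted p of 0.05 and CTACK did not (limma, Benjamini-Hochberg over 32 proteins). In log2 normalised signal, from which the blank is subtracted, all 4 passed, where 93.8% of the panel was lower. This was the behaviour of the whole panel: 90.6% of the proteins were lower in EAE past that threshold, and 96.9% had groups that did not overlap. Counts of 3 of 4 and 4 of 4 are therefore near the background, and the fall itself does not set these chemokines apart. The positive controls averaged 52253 and 50210 in EAE and 54202 and 53284 in controls. The median signal of the 32 proteins on an array was 0.0659 and 0.0556 in EAE and 0.236 and 0.250 in controls, so any factor common to an array, such as the amount of serum applied, moves with every difference taken against the positive control, and its part was not tested.

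6Ckine lay near the background spots in EAE serum and well above them in control serum. Its normalised signal, the authors' deposited value, which runs from 0 at the blank to 1 at the positive control, was 0.0322 and 0.0219 in the EAE samples and 0.168 and 0.220 in the control samples. Both EAE samples were low, and the lower of the control values was 5.22 times the higher of the EAE values. The EAE intensities of 11344 and 10636.5 lay 11 and 450.5 units below the brightest background value of their arrays, a single blank spot, and 1018 and 101.75 units above the average of the negative spots. 6Ckine was thus not above background in EAE by the brightest background value, and its fold is given at a bound set by background. At that bound it was 4.86-fold lower. There the EAE mean takes on each array the higher of its own signal and the lowest signal among proteins above background. The bound takes no account of the scatter of the samples. As measured, without that floor, the ratio of geometric means was 7.23 (limma 95% interval 4.33 to 12.1). In brightness, which keeps the background in both groups, it stood at 21.4 ± 0.37% of the positive control in EAE and 34.3 ± 3.1% in controls (SD, n = 2 each). The log2 brightness difference was -0.67 ± 0.08 (limma SE; 95% interval -0.91 to -0.44; adjusted p = 0.0047).

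MIP-3beta, the other CCR7 ligand, was well above background in both groups. Its normalised signal was 0.327 and 0.316 in the EAE samples and 0.579 and 0.547 in the control samples. The replicates lay close together in both groups, with a gap of 0.220 between the highest EAE and the lowest control value. The means were 0.321 ± 0.0075 in EAE and 0.563 ± 0.023 in controls (SD, n = 2 each), so the EAE mean was 57.1% of the control mean and the geometric means differed by 1.75-fold (limma 95% interval 1.18 to 2.60; adjusted p = 0.016). The log2 brightness difference was -0.51 ± 0.06 (limma SE; 95% interval -0.66 to -0.36; adjusted p = 0.0031). The call in normalised signal was lost without control replicate 1 (limma adjusted p = 0.12) and without control replicate 2 (limma adjusted p = 0.093), at differences of -0.77 and -0.85. The brightness call held with any single array left out.

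TARC, the CCR4 ligand, had a normalised signal of 0.149 and 0.145 in the EAE samples and 0.355 and 0.500 in the control samples. The EAE samples nearly coincided, while the control samples were 1.41-fold apart, and the groups were separated by a gap of 0.206. The means were 0.147 ± 0.0028 in EAE and 0.428 ± 0.103 in controls (SD, n = 2 each). The geometric means differed by 2.86-fold (limma 95% interval 1.80 to 4.54; adjusted p = 0.0027). In log2 brightness TARC had the most negative value of the 4, -0.77 ± 0.13 (limma SE; 95% interval -1.12 to -0.42; adjusted p = 0.0066), and ranked 5 from the most negative on the panel. Both calls held with any single array left out.

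CTACK, the CCR10 ligand from skin, was the member with the widest spread. Its normalised signal was 0.322 and 0.235 in the EAE samples and 0.387 and 0.684 in the control samples. The higher EAE and the lower control sample differed by only 0.0648, less than the distance between the control samples, which were 1.77-fold apart. That distance between controls was the largest of all 32 proteins, both in brightness and in normalised signal. In log2 brightness the CTACK controls differed by 0.57, against a median of 0.12 over the panel. The means were 0.278 ± 0.062 in EAE and 0.535 ± 0.210 in controls (SD, n = 2 each). The log2 brightness difference of -0.55 ± 0.23 did not pass (limma SE; 95% interval -1.18 to 0.076; adjusted p = 0.076). The difference in normalised signal passed at 1.87-fold lower (limma 95% interval 1.02 to 3.42; adjusted p = 0.047). It rested on control replicate 2, the brightest CTACK value, and on EAE replicate 2. Without that control the log2 difference was -0.49 (limma adjusted p = 0.32), and without that EAE sample it was -0.68 (limma adjusted p = 0.071). In brightness, leaving out control replicate 1 made the difference -0.84 and let it pass (limma adjusted p = 0.011), while leaving out control replicate 2 made it -0.26 (limma adjusted p = 0.13).

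**Figure D1:**
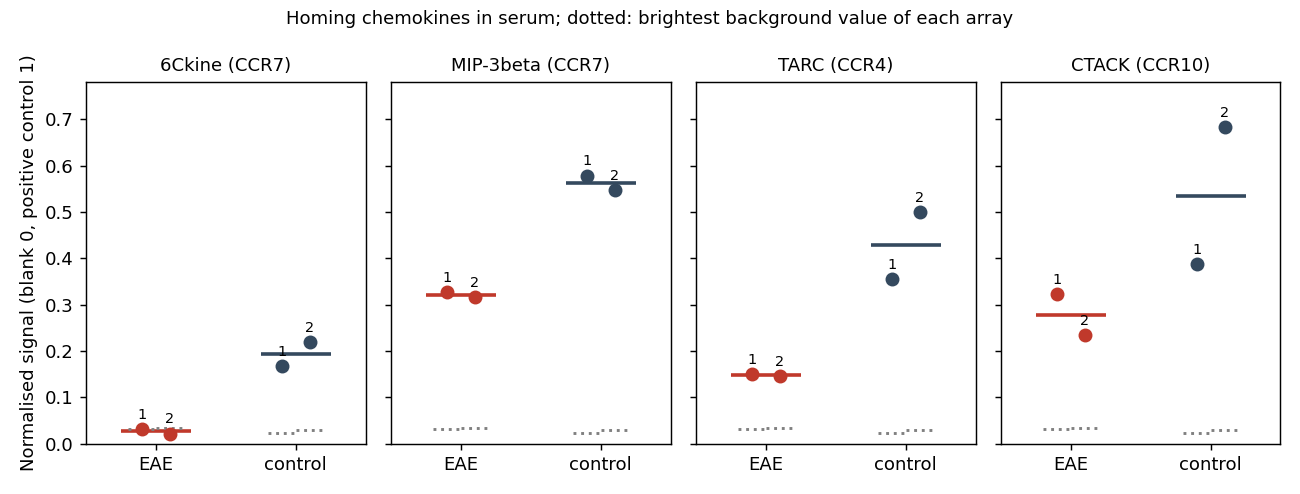
Normalised signal (vertical axis, blank 0 and positive control 1) of the 4 chemokines in EAE and control serum. Each point is 1 array, numbered by replicate, bars are group means of 2 arrays, and dotted lines are the brightest background value of each array; the EAE points of 6Ckine sit at that line, and the CTACK control points are the farthest apart.

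The order of the 4 chemokines depended on the scale of the difference. As a difference of normalised signals on the linear scale, TARC stood at -0.280, CTACK at -0.257, MIP-3beta at -0.241 and 6Ckine at -0.167, against -0.162 for the median protein. On that scale 90.6% of the panel was lower past the threshold, and the CTACK difference was not (limma adjusted p = 0.086). As a log2 ratio of normalised signals the order was 6Ckine, TARC, CTACK and MIP-3beta, with differences of -2.85, -1.52, -0.90 and -0.81, where the 6Ckine value is measured at background. The median over the 32 proteins was -1.84, or 3.57-fold lower, and 2.88-fold with the 7 proteins that were not above background in EAE at their bounds. The bound of 6Ckine, 4.86-fold, exceeded the median on both counts. TARC at 2.86-fold lay below the 3.57-fold median and near the 2.88-fold one, which the bounds lower. CTACK and MIP-3beta lay below both. In log2 brightness TARC and 6Ckine lay below the panel median of -0.54, CTACK at it, and MIP-3beta just above it.

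**Figure D2:**
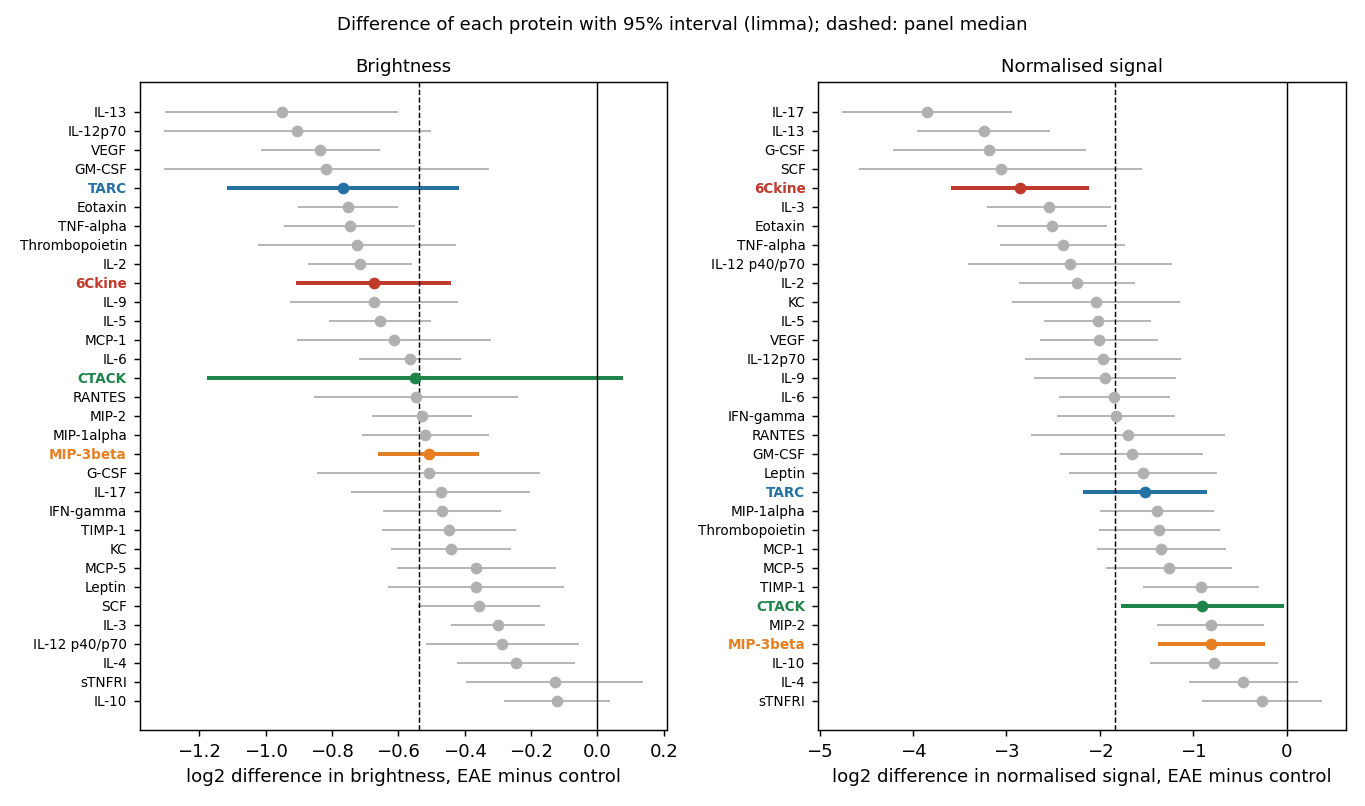
Log2 difference between EAE and control (horizontal axis) of all 32 proteins in brightness (left) and in normalised signal (right), with 95% intervals from limma; the 4 chemokines are coloured and the dashed line is the panel median. TARC ranks 5 from the top in brightness, and the place of 6Ckine in normalised signal is that of a protein not above background in EAE. MIP-3beta and CTACK lie close to the dashed line in brightness and to the right of it in normalised signal.

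Whether ligands of the same receptor moved alike was asked with the log2 ratio of both proteins on each array, which is free of any factor that multiplies every value of that array, though not of the background that brightness keeps. Levels of different antibodies were not compared, only the shift of their ratio between the groups. Ratios were fitted for all 496 pairs of the panel, with p-values adjusted over them; pairs share proteins and are not independent. The 6 ratios among the 4 chemokines gave no call in brightness (limma, adjusted p from 0.25 to 0.89, with 0 at an unadjusted p under 0.05), where 9.27% of all pairs passed. In normalised signal 3 of 6 passed, each of them with 6Ckine, where 38.3% of all pairs passed. The groups did not overlap in 5 of the 6 ratios in normalised signal, where 73.6% of all pairs did not overlap, and in 3 of 6 in brightness, where the share was 67.3%.

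For the CCR7 ligands, the log2 ratio of 6Ckine to MIP-3beta in normalised signal was -3.34 and -3.85 on the EAE arrays and -1.78 and -1.32 on the control arrays. The ratio was lower on both EAE arrays, by -2.05 ± 0.44 (limma SE; adjusted p = 0.00054). With 6Ckine at its bound, it fell 2.77-fold more than MIP-3beta. No test was run at the bound, which leaves out the scatter of the samples. The limma 95% interval of the measured difference was -2.93 to -1.16. In brightness the same ratio was -1.07 and -1.08 on the EAE arrays and -1.03 and -0.79 on the control arrays. The groups did not overlap there either, and the difference of -0.16 had a 95% interval of -0.46 to 0.13 (limma adjusted p = 0.40). This interval does not limit how much 6Ckine fell, since its EAE brightness was that of the background spots. The unequal fall of these CCR7 ligands passed the test with the blank subtracted and not without. An offset of 0.1 added to the normalised signal left the difference at -0.55 (limma adjusted p = 0.070). That offset exceeds the EAE signals of 6Ckine, 0.0322 and 0.0219. It shrinks any larger fall of 6Ckine, so the lost call does not decide whether the falls were equal.

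6Ckine also fell more than CTACK in normalised signal, by -1.95 ± 0.43 in the log2 ratio (limma SE; adjusted p = 0.00081), and 2.59-fold more at its bound. Its ratio to TARC differed by -1.34 ± 0.43 (limma SE; adjusted p = 0.015), or 1.70-fold at the bound. Both calls depended on the scale, though the offset exceeds the EAE signals of 6Ckine and so shrinks any larger fall of it. With an offset of 0.1 the difference was -0.49 against CTACK (limma adjusted p = 0.13) and -0.13 against TARC (adjusted p = 0.68). In brightness the ratio to CTACK differed by -0.12 and that to TARC by 0.093 (limma adjusted p = 0.59 and 0.62). The brightness ratio to TARC was -0.52 and -0.56 on the EAE arrays and -0.56 and -0.70 on the control arrays. As with MIP-3beta, the brightness ratios do not limit how much 6Ckine fell, since its EAE brightness was that of the background spots. The call against TARC was lost without control replicate 1, control replicate 2 or EAE replicate 2 (limma adjusted p = 0.096, 0.079 and 0.082). The normalised-signal calls against MIP-3beta and CTACK held with any single array left out.

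MIP-3beta, TARC and CTACK were above background on every array. With all 4 arrays in the fit, no call separated them from each other on either scale. The log2 ratio of MIP-3beta to TARC in normalised signal was 1.13 and 1.12 on the EAE arrays and 0.70 and 0.13 on the control arrays, higher on both EAE arrays, with a difference of 0.71 and a 95% interval of -0.17 to 1.59 (limma adjusted p = 0.20). Between the CCR4 and CCR10 ligands, the ratio of TARC to CTACK was -1.11 and -0.69 in EAE and -0.12 and -0.45 in controls, a difference of -0.61 with a 95% interval of -1.49 to 0.27 (limma adjusted p = 0.27). The ratio of MIP-3beta to CTACK overlapped between the groups, with a difference of 0.097 and an interval of -0.81 to 1.00 (limma adjusted p = 0.88). These intervals are wide: the last allows unequal falls of up to 2.00-fold in one direction and 1.75-fold in the other.

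In brightness the pair differences depended on the control arrays. Without control replicate 1 they were -0.29 for 6Ckine to MIP-3beta, 0.45 for MIP-3beta to TARC and 0.36 for MIP-3beta to CTACK. Without control replicate 2 the same ratios differed by -0.044, 0.067 and -0.27. The ratios of 6Ckine to CTACK and of TARC to CTACK differed by -0.32 and -0.34 without control replicate 2. Without control replicate 1 they differed by 0.070 and -0.093. Control replicate 2 held the higher value of 6Ckine, TARC and CTACK and the lower value of MIP-3beta.

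**Figure D3:**
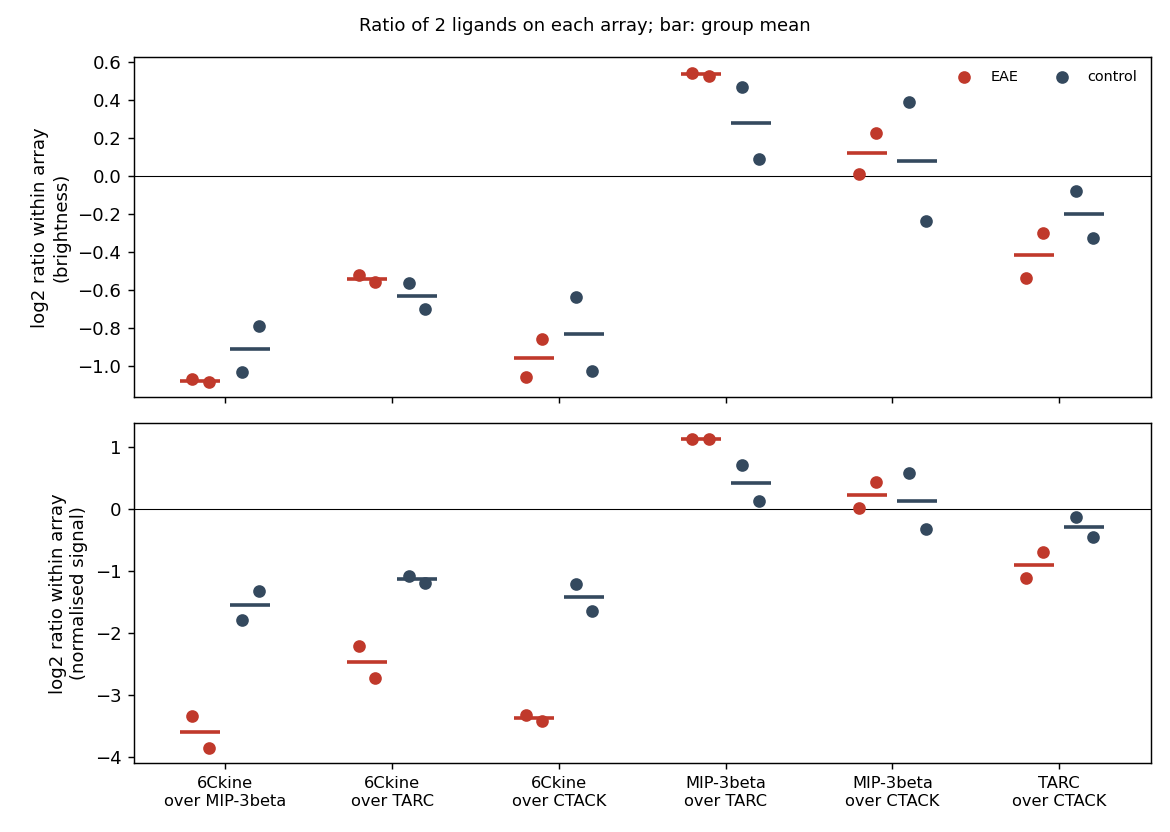
Log2 ratio of 2 chemokines on the same array (vertical axis) in brightness (top) and normalised signal (bottom), for the 6 pairs; each point is 1 array and bars are means of the 2 EAE or 2 control arrays. In normalised signal the ratios of 6Ckine to the other 3 lie lower on both EAE arrays, while in brightness the groups lie close together or overlap.

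Grouped by destination, the mean log2 signal of the lymph node ligands 6Ckine and MIP-3beta less that of TARC and CTACK was -1.10 and -1.15 on the EAE arrays and -0.25 and -0.76 on the control arrays. The EAE arrays were lower, by -0.62, with 6Ckine at its measured EAE signal, which was not above background. The size of this difference and the separation of the groups are therefore not measured. The contrast was not computed with 6Ckine at its bound. In brightness the same contrast was -0.26 and -0.16 on the EAE arrays and -0.084 and -0.47 on the control arrays, and the groups overlapped. No p is given for this contrast, and in normalised signal its parts differed: the ratios of 6Ckine to TARC and CTACK were lower in EAE, while those of MIP-3beta to TARC and CTACK averaged higher without passing.

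The panel's other CC chemokines, Eotaxin, MCP-1, MCP-5, MIP-1alpha and RANTES, draw monocytes, eosinophils and effector T cells to inflamed tissue. All 5 were lower in EAE on both scales past the threshold, with a median log2 brightness difference of -0.55, against -0.61 for the 4 homing chemokines and -0.54 for all proteins. Of 20 ratios between a homing and another CC chemokine, 0 passed in brightness (limma; 1 at an unadjusted p under 0.05). In normalised signal 6 of 20 passed, a smaller share than the 38.3% of all pairs. In 4 of them 6Ckine, with its EAE values at background, was lower relative to MCP-1, MCP-5, MIP-1alpha and RANTES, with log2 differences from -1.60 to -1.16 (limma adjusted p from 0.0053 to 0.038), but not past the threshold against Eotaxin, at -0.34 (adjusted p = 0.55). MIP-3beta and CTACK fell less than Eotaxin, an attractant of eosinophils, at 1.71 and 1.61 (limma adjusted p = 0.0024 and 0.0053). Eotaxin, like 6Ckine, lay close to background in EAE, and it had the largest fall of the other CC chemokines, at -0.75 in brightness. TARC did not differ past the threshold from any of the 5, with log2 differences in normalised signal from -0.26 to 1.00.

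Each chemokine was also set against all 31 other proteins, where 38.3% of the panel's pairs passed in normalised signal and 9.27% in brightness. In normalised signal MIP-3beta passed as falling less than 15 proteins and CTACK as falling less than 14, and neither passed as falling more than any. Of these, 7 in each case lay below the brightest background value of both EAE arrays, which leaves 8 for MIP-3beta and 7 for CTACK. Both remainders include KC, which cleared that value on EAE replicate 1 but fell under it on EAE replicate 2. MIP-3beta and CTACK were among the brightest spots, ranked 2 and 3 on EAE replicate 1 and 2 and 5 on EAE replicate 2. Small falls were not particular to them. MIP-2, IL-4 and sTNFRI, also bright in EAE, stood at -0.81, -0.46 and -0.27 in log2 normalised signal. So did IL-10 at -0.78, though it ranked 17 and 22 in EAE. TARC fell more than 1, the soluble receptor sTNFRI, and the 5 it passed as falling less than were all below background in EAE. For 6Ckine the values at background gave 15 calls, whose sizes are not measured. In brightness 6Ckine had 2 calls, against IL-10 and sTNFRI, TARC had 3, against IL-4, IL-10 and sTNFRI, and MIP-3beta and CTACK had 0, all near or below the share of all pairs.

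TARC is a ligand for CCR4 on T helper 2 cells, and the type 2 cytokines IL-4, IL-5, IL-9 and IL-13 were listed beside it. The counts of this and the next lists lie near the panel's shares of 90.6% in brightness and 93.8% in normalised signal. In brightness 4 of 4 were lower, with a median of -0.66 and a range from -0.95 for IL-13 to -0.25 for IL-4. In normalised signal 3 of 4 were lower, IL-4 being the exception at -0.46 (limma adjusted p = 0.11). The dendritic cell and myeloid cytokines IL-12p70, IL-12 p40/p70 and GM-CSF were lower in 3 of 3 on both scales. Their median brightness difference was -0.82, with a range from -0.90 for IL-12p70 to -0.29 for IL-12 p40/p70. IL-12 p40/p70 and, in the type 2 list, IL-13 lay below the brightest background value of both EAE arrays. The sizes of those falls are therefore not measured. The CXC chemokines KC and MIP-2 were lower in 2 of 2, with a median of -0.49. Proteins that platelets release on clotting, RANTES, VEGF and TIMP-1, moved with the chemokines: 3 of 3 were lower, at a median brightness difference of -0.55, and their part in the chemokine differences was not tested.

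The proteins with the most similar pattern over the 4 arrays were found by the root mean square distance of log2 brightness after each protein was centred on its own mean. MIP-3beta was closest to MIP-2, which attracts neutrophils, with a distance of 0.018, and to MIP-1alpha with 0.026, where the median distance to the other proteins was 0.12. 6Ckine was closest to IL-9 at 0.033 and Thrombopoietin at 0.039, against a median of 0.14. TARC was closest to Thrombopoietin at 0.042 and GM-CSF at 0.059, with 6Ckine next at 0.069 and a median of 0.16. CTACK had no close neighbour, since its nearest, MCP-1 and G-CSF, lay at 0.13 and 0.15, against a median of 0.23. The CCR7 ligands were 0.12 apart, and MIP-3beta ranked 13 among the proteins nearest to 6Ckine. The distances share 4 arrays and their common shift and are descriptions without a test.

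Setting each array to its own median removed the shared fall and asks which chemokines moved unlike the typical protein. The shift removed was -0.66 in log2 brightness, larger than the median protein difference, so the median over all proteins became 0.12. Relative to the array median in brightness none of the 4 passed (limma, 0 at an unadjusted p under 0.05), where 12.5% of the panel did. 6Ckine stood at -0.010 and TARC at -0.10, while MIP-3beta stood at 0.15 and CTACK at 0.11. In normalised signal relative to its array median, MIP-3beta was higher in EAE by 1.20 ± 0.24 (limma SE; adjusted p = 0.0056) and CTACK by 1.10 ± 0.30 (adjusted p = 0.023), where 21.9% of the panel was higher. The others that passed as higher were sTNFRI, IL-4, IL-10, MIP-2 and TIMP-1. 6Ckine was lower by -0.85 ± 0.26 (limma SE; adjusted p = 0.034), where 9.38% of the panel was lower, but its EAE values were not above background. TARC stood at 0.49 ± 0.26 and did not pass (limma adjusted p = 0.16). After quantile normalization none of the 4 passed (limma; TARC at an unadjusted p of 0.014), where 3.12% of the panel did, and MIP-3beta stood at 0.065 with the other 3 between -0.15 and -0.14.

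**Figure D4:**
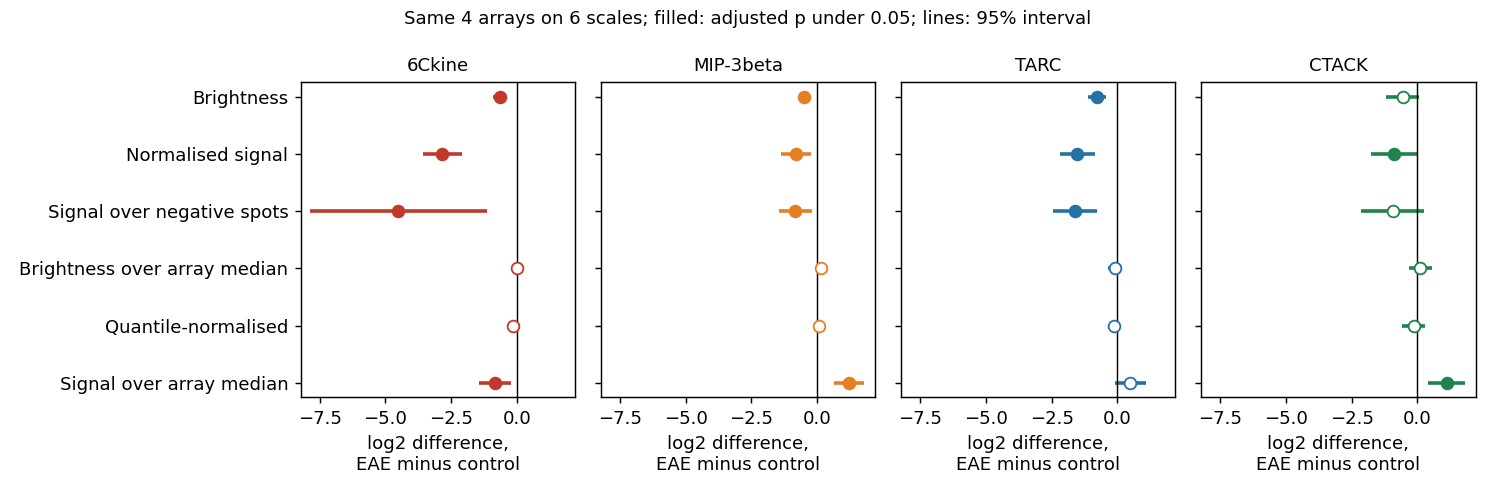
Log2 difference between EAE and control (horizontal axis) of each chemokine on 6 scales of the same 4 arrays, with 95% intervals from limma; filled points have an adjusted p under 0.05. The points of the 3 upper rows, scaled to the positive control, lie below 0 for all 4 chemokines; in the 3 lower rows, scaled to the rest of the panel, those of MIP-3beta lie above 0, those of 6Ckine below it, and those of TARC and CTACK on either side.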

How the data were processed

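Serum proteins were read on antibody arrays with a biotin label, per the labels. The authors deposited intensity values per protein with 4 rows of control spots per array, and a table of ratios for 32 proteins. Per the row names of the deposited files, control spots were averaged, except for 1 blank spot. The deposited ratio was recomputed as intensity minus blank average over positive minus blank average, with a largest deviation of 1.24e-07, and is called normalised signal. The sources used here name neither scanner nor imaging software.

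Brightness is log2 of intensity over the positive-control average. All 4 arrays entered 1 model with the group as its term (limma 3.58.1, R 4.3.3, lmFit and eBayes, two-sided, 95% intervals), adjusted by Benjamini-Hochberg over all 32 proteins or 496 pairs. The fits were run on simulated data with independent noise of equal spread for every protein and part of the panel unchanged. These arrays differ in both respects, so that run is not used as support. An exact permutation of 2 against 2 arrays has 6 arrangements and gives p = 0.333 for each chemokine, the smallest it can. The number of arrays limits the precision. The 4 members, the lists and the tests were chosen with earlier results of these data known. The text names the 4 members, the proteins of fixed lists and the 2 nearest proteins by pattern; further proteins are named where a count turns on them. Alternatives covered scaling, background, filter, prior, replicate block and single arrays left out.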

Additional observations from a re-analysis of the deposited data

How the results depend on the processing

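The differences of the 4 chemokines kept their direction in every setting run except the scalings that set the arrays equal to each other. With each array scaled to its median, the panel count of 29 became 4, the count of 3 of the 4 chemokines became 0, 6Ckine and TARC lost their calls at -0.010 and -0.10, and MIP-3beta and CTACK turned to 0.15 and 0.11. With quantile normalization the panel count became 1 and the chemokine count 0, with 6Ckine at -0.15, TARC at -0.14 and MIP-3beta turned to 0.065. Both scalings remove a shared shift by construction. CTACK passed without positive-control scaling (-0.62), in the authors' normalised signal (-0.90), with an offset of 0.1 (-0.72) and without the proteins below background (-0.55, limma adjusted p = 0.016). It also passed with the replicate block (-0.55, limma adjusted p = 0.00031) or the crossed block (-0.55, limma adjusted p = 0.015). The labels do not pair the samples, and each block leaves 1 residual degree of freedom per protein, so these passes are not used as support. CTACK did not pass with the negative-spot average subtracted (-0.94, limma adjusted p = 0.10) or with an intensity trend in the prior (-0.55, limma adjusted p = 0.063). The count of member pairs was 0 in brightness, where 9.27% of all pairs passed, and 3 in normalised signal, where 38.3% did. It was 2 with the negative-spot average subtracted, where 27 proteins could be fitted and 21 passed. The share of all pairs in that setting is not given. Without the proteins below background, 23 of 25 passed and 6Ckine could not be fitted.

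With 1 array left out, the panel count was 19 to 30, the chemokine count 3 to 4 and the pair count 0 to 3 in brightness and 2 to 3 in normalised signal. The panel count was 20 without EAE replicate 1 and 19 without EAE replicate 2. Brightness differences ranged from -0.77 to -0.58 for 6Ckine, from -0.54 to -0.48 for MIP-3beta, from -0.93 to -0.60 for TARC and from -0.84 to -0.26 for CTACK. In normalised signal they ranged from -3.13 to -2.58 for 6Ckine, from -0.85 to -0.77 for MIP-3beta, from -1.76 to -1.27 for TARC and from -1.32 to -0.49 for CTACK. A group left with 1 array is assumed to vary like the other. The share of all pairs that passed in each of these fits is not given, so their pair counts are not set against the panel.

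Replicate numbers do not pair these samples by the labels, and same-numbered arrays deviated with r = -0.16 over 32 proteins. The replicate block gave 30 panel calls and 4 of 4 chemokines, as did the crossed block; each leaves 1 residual degree of freedom per protein. The linear scale, the crossed block and normalised signal with an array left out were added after seeing the data.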
